A study of Mus musculus with 5 samples.

Results

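Stellate cell nuclei carrying transcripts of the fibrillar collagens were picked out of mouse liver single-nucleus RNA-seq by a rule on unique molecular identifiers (UMIs, the tags that count individual captured RNA molecules). They were chosen by the counts of 15 genes, whose values are therefore given below only as a description. A nucleus was kept if it had at least 300 detected genes and under 10% of its UMIs from mitochondrial genes. It was taken as stellate if it had no UMI of 4 genes that mark other liver lineages (Hnf4a of hepatocytes, Ptprc of immune cells, Ptprb of endothelial cells and Pkhd1 of cholangiocytes) and at least 1 UMI of at least 2 of 8 stellate genes (Reln, Lrat, Dcn, Ecm1, Colec11, Pdgfrb, Hand2os1 and Robo2). Of these, nuclei with at least 2 summed UMIs of Col1a1, Col1a2 and Col3a1 are called collagen-positive here. They numbered 1279 of 2765 stellate nuclei, 48533 kept nuclei and 57080 deposited barcodes. The 898 stellate nuclei with no UMI of these 3 genes are called collagen-zero, and 588 nuclei with 1 such UMI belong to neither class.

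The livers came from male wild-type C57BL6/J mice fed for 5 months from an age of 10 to 12 weeks. The chow group had 3 libraries from mice on regular chow. The MASH group had 2 libraries from mice on a diet that brings on metabolic dysfunction-associated steatohepatitis, in which fat gave 40 kcal%, fructose 20 kcal% and cholesterol made up 2%, named in the labels as the AMYLIN liver NASH diet. Nuclei from snap-frozen liver were sorted by flow cytometry and made into droplet-based 3′ libraries. No source used here states whether a library of this set came from 1 mouse or from several, so p-values measure only the spread between these libraries.

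Hepatic stellate cells are the pericytes of the liver. They lie between the sinusoidal endothelium and the hepatocytes and store vitamin A as retinyl esters, which Lrat makes. When the liver is injured they can become activated, take on features of myofibroblasts and lay down collagen types I and III, of which Col1a1, Col1a2 and Col3a1 encode the chains, and so they are the main source of scar matrix in steatohepatitis. Collagen chains are hydroxylated and folded in the endoplasmic reticulum with the help of the chaperone Serpinh1 (HSP47), trimmed outside the cell by enzymes such as Adamts2 with the enhancer Pcolce, and cross-linked by lysyl oxidases.

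The libraries held from 35612373 to 49137377 UMIs. The share of barcodes over the mitochondrial limit was 40.1% in MASH replicate 1 and between 2.56% and 12.4% in the other 4 libraries, so that MASH replicate 1 lost the most nuclei to this filter. Any 2 libraries shared between 23 and 48 barcodes, at most 0.399% of the smaller library, and 1 shared barcode was among the collagen-positive nuclei. The collagen-positive nuclei numbered 94 in chow replicate 1, 23 in chow replicate 2, 71 in chow replicate 3, 311 in MASH replicate 1 and 780 in MASH replicate 2, so the chow group rested on 188 nuclei, the fewest of them in chow replicate 2. Their median depth was 1091, 1346 and 1477 UMIs in the chow libraries and 1489 and 1405 in the MASH libraries.

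The label was checked on genes that the rule did not use. A list of 12 further stellate genes (among them Rgs5, Vipr1, Tcf21, Cygb and Des) summed to between 24.2 and 47.2 UMIs per 10000 in the collagen-positive nuclei of the chow libraries and to 21.8 and 28.9 in those of MASH, against at most 12.3 and 1.34 in hepatocyte-gated nuclei. Those had a UMI of Hnf4a, none of the other 3 lineage genes and fewer than 2 stellate genes, and nuclei gated as endothelial had the same with Ptprb. Among the genes of the rule itself, Hand2os1 was found in 84.4% of the collagen-positive nuclei, Dcn in 82.1%, Reln in 63.5%, Pdgfrb in 53.1%, Robo2 in 45.2%, Lrat in 42.9%, Ecm1 in 38.9% and Colec11 in 30.3%. At least 2 of 16 portal fibroblast markers were found in 115 of the 1279 nuclei (8.99%) and in 13 of the collagen-zero nuclei (1.45%). At least 2 of 10 vascular smooth muscle markers were found in 42 nuclei (3.28%), and at least 2 of 10 mesothelial markers in none. Some of the collagen-positive nuclei thus carried markers of other fibroblasts, and the diet counts below are also given without them.

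The sequences just upstream of 5 genes are shown because the genes are the collagens of the rule or the matrix genes that stood out from the collagen-zero nuclei below. The letters are RefSeq's, from the mouse build GRCm38.p6, read 5′ to 3′ on the strand of the gene and ending before its first base, and capitals mark the GC box letters GGGCGG or, on the other strand, CCGCCC. The windows lie at chr1:45311288-45311537 on the plus strand for Col3a1, chr6:4505370-4505492 on the plus strand for Col1a2, chr1:90843972-90844221 on the minus strand for Col6a3, chr7:99353240-99353489 on the minus strand for Serpinh1 and chr5:77408046-77408295 on the minus strand for Igfbp7. The window of Col1a2 was kept to 123 bases, ending 126 bases before the RefSeq start, to keep out an exon of a longer annotated transcript. It lies upstream of that RefSeq start only, and inside the longer gene span of the GENCODE M21 annotation, which begins at chr6:4504814.
Col3a1: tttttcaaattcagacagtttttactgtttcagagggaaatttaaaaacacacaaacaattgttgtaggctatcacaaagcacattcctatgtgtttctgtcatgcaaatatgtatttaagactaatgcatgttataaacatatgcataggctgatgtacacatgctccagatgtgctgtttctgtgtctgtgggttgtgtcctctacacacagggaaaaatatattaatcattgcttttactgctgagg
Col1a2: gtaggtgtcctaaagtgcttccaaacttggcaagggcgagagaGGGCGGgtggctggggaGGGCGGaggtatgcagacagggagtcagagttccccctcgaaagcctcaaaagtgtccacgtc
Col6a3: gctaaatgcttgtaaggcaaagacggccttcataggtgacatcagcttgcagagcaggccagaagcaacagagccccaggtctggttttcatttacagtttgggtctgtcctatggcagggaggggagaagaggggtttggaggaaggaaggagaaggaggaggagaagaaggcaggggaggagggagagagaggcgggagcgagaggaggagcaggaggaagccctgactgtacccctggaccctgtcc
Serpinh1: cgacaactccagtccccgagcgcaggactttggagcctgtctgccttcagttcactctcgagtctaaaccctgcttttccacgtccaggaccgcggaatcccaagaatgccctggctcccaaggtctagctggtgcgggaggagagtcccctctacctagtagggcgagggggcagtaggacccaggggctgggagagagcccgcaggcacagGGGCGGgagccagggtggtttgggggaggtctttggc
Igfbp7: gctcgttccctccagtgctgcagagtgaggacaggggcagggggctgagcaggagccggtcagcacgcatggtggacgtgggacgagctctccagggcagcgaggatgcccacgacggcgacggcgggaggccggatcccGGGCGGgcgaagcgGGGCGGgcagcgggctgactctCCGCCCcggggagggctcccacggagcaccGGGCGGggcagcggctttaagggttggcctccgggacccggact
Igfbp7 had 4 such matches in a window of 74% G and C, Serpinh1 had 1 and Col1a2 had 2, while Col3a1, at 35.2% G and C, and Col6a3 had none. For comparison, 32.7% of 32851 RefSeq windows of 250 bases and 13.2% of windows of 123 bases held at least 1 match. The genes themselves lie at chr1:45311538-45349706 (Col3a1), chr6:4504814-4541544 (Col1a2), chr11:94936224-94953042 (Col1a1), chr1:90765923-90843971 (Col6a3), chr7:99345376-99353239 (Serpinh1) and chr5:77349240-77408041 (Igfbp7) in the GENCODE M21 annotation of the same build.

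The first comparison asked how many stellate nuclei carried collagen transcripts on each diet. Collagen-positive nuclei were 22.4% of the stellate nuclei in chow replicate 1 (95% exact Clopper-Pearson interval 18.5 to 26.7), 15.1% in chow replicate 2 (9.84 to 21.8) and 19.1% in chow replicate 3 (15.3 to 23.5). They were 52.9% in MASH replicate 1 (48.8 to 57.0) and 63.2% in MASH replicate 2 (60.4 to 65.9). The lowest MASH library was above the highest chow library, with means of 58.1% ± 7.30 (SD, n = 2) and 18.9% ± 3.63 (SD, n = 3), a difference of 39.2 percentage points. The share is made from the collagen counts of the rule, so it is a description with no test. The intervals cover counting error only.

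Depth sets how often a nucleus reaches 2 UMIs, so each stellate nucleus was also thinned to a fixed number of UMIs. At 1000 UMIs, which left out 356 chow and 439 MASH nuclei as too shallow, the chow libraries gave 18.7%, 10.4% and 17.0% and the MASH libraries 41.0% and 53.6%. At 500 UMIs, which every stellate nucleus had, the chow libraries gave 10.7%, 2.63% and 7.01% and the MASH libraries 20.1% and 30.6%. The groups did not overlap at either depth, and the difference was 31.9 and 18.5 percentage points. Collagen UMIs were also found in nuclei outside the stellate gate, and whether RNA free of nuclei put them there was not tested. Among nuclei gated as endothelial (a UMI of Ptprb, none of the other lineage genes), with median depths from 1019 to 1716 UMIs, 2 or more collagen UMIs were found in at most 0.186% in chow and in 1.88% and 3.60% in MASH. At least 1 collagen UMI was found in 0.444% to 1.62% of the endothelial nuclei in chow and in 12.0% and 18.2% in MASH. A single collagen UMI was thus not rare in MASH nuclei outside the stellate gate, and stellate nuclei with exactly 1 were left out of both classes.

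**Figure D1:**
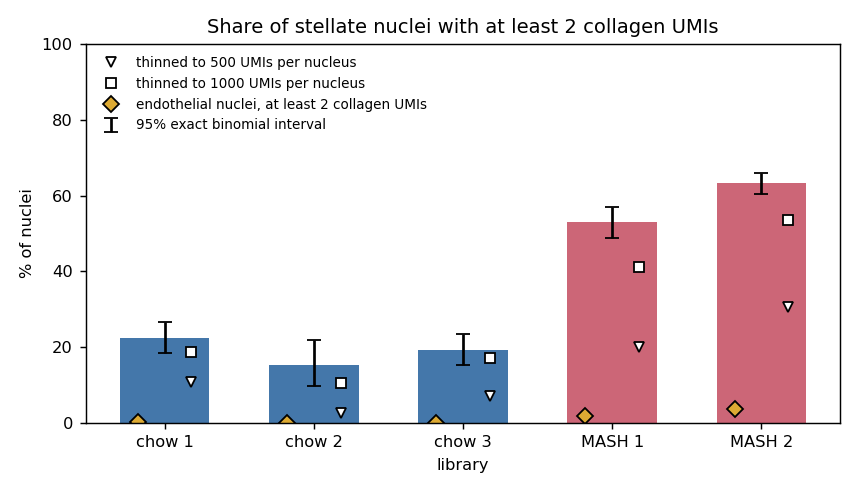
The bars give the percent of stellate nuclei with at least 2 UMIs of Col1a1, Col1a2 and Col3a1 in each library (blue, chow; red, MASH), with 95% exact binomial intervals. Open squares and triangles give the share after thinning to 1000 and 500 UMIs, and diamonds the share of endothelial nuclei with at least 2 collagen UMIs. Both MASH bars, 52.9% and 63.2%, stand above the 3 chow bars, and so do the MASH squares above the chow squares.

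Collagen-positive nuclei also made up a larger part of all nuclei in both MASH libraries than in any chow library. They were 1.16%, 0.203% and 0.664% of all kept nuclei in the chow libraries and 4.07% and 7.23% in the MASH libraries, a difference of 4.98 percentage points. Without a threshold per nucleus, the 3 collagens took 8.94, 3.19 and 5.96 of every 10000 UMIs of the stellate nuclei in chow and 14.8 and 22.1 in MASH, a difference of 12.4. Both are descriptions as well. A summed level of this kind cannot tell more positive nuclei from more transcripts per nucleus, and the next values look at the latter.

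Within the collagen-positive nuclei the counts per nucleus were higher in MASH. These values belong to the genes of the rule, so they are a description with no test. The mean was 4.67, 2.43 and 3.52 collagen UMIs per nucleus in the chow libraries and 5.07 and 5.56 in the MASH libraries. Exactly 2 UMIs, the lowest count that the rule admits, were found in 56.4% of the chow nuclei and 27.8% of the MASH nuclei. More than 5 UMIs were found in 12.2% and 29.6%, and more than 10 in 4.79% and 9.07%. The highest single nucleus held 59, in MASH replicate 2. Nuclei just inside the limit held somewhat more of the 8 stellate genes than those just outside it in each library. Chow nuclei with 2 collagen UMIs held a mean of 5.09, 4.53 and 4.71 of these genes by library, and those with 1 held 4.99, 4.07 and 4.21. The MASH means were 4.21 and 4.08 with 2 UMIs against 3.99 and 4.05 with 1, at median depths over all libraries of 1249 and 1150 UMIs. Per 10000 UMIs the collagen-positive nuclei held 36.2, 14.7 and 20.3 collagen UMIs in chow and 27.3 and 33.6 in MASH, so on this scale the diets overlapped and chow replicate 1 was the highest.

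**Figure D2:**
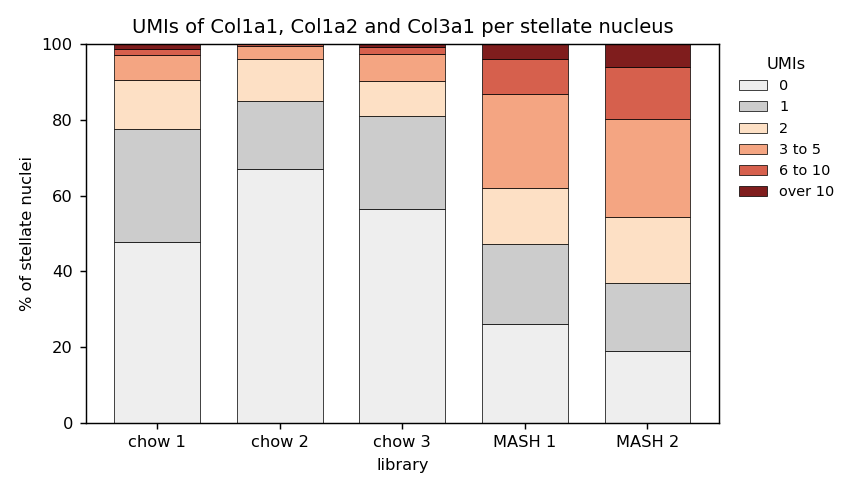
Stacked bars give the percent of stellate nuclei of each library that held 0, 1, 2, 3 to 5, 6 to 10 or over 10 summed UMIs of Col1a1, Col1a2 and Col3a1. The collagen-positive classes, coloured from pale orange to dark red, fill 52.9% and 63.2% of the MASH bars and at most 22.4% of the chow bars.

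The 3 collagens were not found equally often. Col3a1, the chain of type III collagen, was present in 91.0% of the chow and 89.5% of the MASH collagen-positive nuclei. Col1a2, the second chain of type I collagen, was present in 45.7%, 47.8% and 39.4% of them in the chow libraries and in 61.7% and 69.9% in the MASH libraries. Col1a1, the main chain of type I collagen, was present in 26.6%, 21.7% and 36.6% in chow and in 47.6% and 59.0% in MASH. The presence of both type I chains was thus higher in each MASH library than in each chow library, while that of Col3a1 was nearly the same. Their levels overlapped between the diets. Per 10000 UMIs Col1a1 was at 7.17, 1.58 and 2.84 in chow and 5.52 and 7.55 in MASH. Col1a2 was at 9.65, 4.73 and 4.46 in chow and 6.78 and 9.85 in MASH. All 3 genes were found together in 10.1% of the chow and 33.4% of the MASH nuclei, and a single gene of the 3 in 45.7% and 20.6%. Of all collagen UMIs in these nuclei, Col3a1 made up 57.3% in chow (745 UMIs in all) and 49.9% in MASH (5917 UMIs), Col1a2 25.5% and 28.2%, and Col1a1 17.2% and 21.9%. A 3′ count is not a length-scaled level, so these shares compare detected molecules and not the expression of the 3 genes.

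The stellate genes of the rule also differed by diet within the collagen-positive nuclei, again as a description. Ecm1, a secreted matrix protein that quiescent stellate cells make, was found in 74.5% of the chow and 32.8% of the MASH nuclei, and Colec11, a collectin, in 49.5% and 27.0%. In CPM (UMIs per 1000000, with the total of each library scaled by the TMM factors of edgeR), Ecm1 was at 3700, 2013 and 3011 in the chow libraries and 486 and 322 in the MASH libraries. Dcn, the proteoglycan decorin, was at 6865, 3691 and 9414 in chow and 2290 and 1904 in MASH, although 80.3% of the MASH nuclei still held it. Pdgfrb, the receptor through which platelet-derived growth factor drives stellate cell growth, overlapped between the diets, at 567, 410 and 983 CPM in chow and 688 and 779 in MASH. Robo2, a guidance receptor, was found in 30.9% of the chow and 47.7% of the MASH nuclei, at 402, 298 and 442 CPM in chow and 470 and 735 in MASH. The groups did not overlap for Ecm1, Dcn, Reln, Lrat and Colec11, all lower in MASH, or for Robo2, which was higher, and they overlapped for Pdgfrb and Hand2os1. For Robo2 the gap was narrow, from 442 CPM in the highest chow library to 470 in the lowest MASH library. Over the 2715 genes outside the rule that were tested between diets, MASH lay below chow with no overlap for 16.6% and above it for 17.3%.

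The second comparison set the collagen-positive against the collagen-zero nuclei of the same library, to show which other genes went with the collagens. UMIs were summed per library and class and compared with edgeR's quasi-likelihood test with the library as a block, leaving out the 15 genes of the rule. Of 5678 genes tested, 1362 were called at a Benjamini-Hochberg adjusted p under 0.05, which is 24.0% of them. Of these, 640 were higher in the collagen-positive nuclei (11.3%) and 722 lower (12.7%). The median over all genes tested was 0.00 on the log2 scale. The direction was the same in all 5 libraries for 1381 genes (24.3%). Counts for gene lists below are to be read against these shares. They cover only genes with enough counts to be tested. How far the count filter, which took in the sums of both classes, set the list shares was not tested.

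Hepatocyte regulators moved with this split. At least 2 of 7 hepatocyte regulators (among them Mlxipl, Onecut1, Onecut2, Prox1, Nr1i3 and Ppara) were found in 227 of the collagen-positive nuclei (17.7%) and in 281 of the collagen-zero nuclei (31.3%). The 7 genes summed to between 4.46 and 22.1 UMIs per 10000 in the collagen-positive nuclei of chow and to 10.9 and 15.0 in those of MASH, against 14.3 to 42.6 and 35.0 to 35.8 in the collagen-zero nuclei and 41.7 to 72.6 and 52.6 to 57.2 in nuclei gated as hepatocytes. A list of 16 abundant hepatocyte markers differed less. It summed to a mean of 366 UMIs per 10000 over the chow libraries and 151 over the MASH libraries in the collagen-positive nuclei, against 419 and 172 in the collagen-zero nuclei. The median depth of the collagen-positive nuclei was 1406 UMIs against 1169.5 in the collagen-zero nuclei. Thinning to 1000 UMIs left 415 calls of 1806 genes tested, 398 of them among the 1362. The collagen-positive nuclei also held more of the stellate genes: 68.8% had at least 4 of the 8 genes against 48.3% of the collagen-zero nuclei. The same test was therefore run, as alternatives chosen after seeing the data, without nuclei holding at least 2 hepatocyte regulators and on nuclei with at least 4 stellate genes. The first called 8 genes of 2111 tested, 5 higher and 3 lower, with 243 at an unadjusted p under 0.05. The second called 41 of 2172, 19 higher and 22 lower. Most of the 1362 calls were thus not made once the 2 classes were closer in these respects, with fewer nuclei and fewer genes tested. How much of the difference between the classes belongs to hepatocyte RNA was not tested.

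The genes called higher in both of these stricter comparisons were Col6a3, Serpinh1, Igfbp7 and Pcdh7, of which Pcdh7 was named after its values were seen. Col6a3, a chain of the beaded-filament collagen type VI, was at 630 CPM in the collagen-positive and 237 in the collagen-zero nuclei of chow replicate 1, 426 and 198 in chow replicate 2, 959 and 287 in chow replicate 3, 537 and 124 in MASH replicate 1 and 1023 and 292 in MASH replicate 2. It was higher in 5 of 5 libraries, with a log2 fold change of 1.70 (SE 0.17, edgeR adjusted p = 2.85e-10), and of 0.86 without nuclei holding hepatocyte regulators and 0.85 with at least 4 stellate genes.

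Serpinh1, the collagen-specific chaperone, was at 665 and 118 CPM in the 2 classes of chow replicate 1, 256 and 134 in chow replicate 2, 959 and 417 in chow replicate 3, 262 and 70.7 in MASH replicate 1 and 257 and 89.8 in MASH replicate 2. Its log2 fold change was 1.65 (SE 0.19, edgeR adjusted p = 4.13e-09), and 1.03 and 0.92 in the stricter comparisons. In collagen-positive nuclei Serpinh1 was lower in both MASH libraries than in 2 of the 3 chow libraries, at about the level of chow replicate 2.

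Igfbp7, a secreted protein of the matrix that binds insulin-like growth factors, was at 1190 and 258 CPM in the 2 classes of chow replicate 1, 767 and 247 in chow replicate 2, 1813 and 925 in chow replicate 3, 627 and 251 in MASH replicate 1 and 397 and 132 in MASH replicate 2. The log2 fold change of Igfbp7 was 1.51 (SE 0.17, edgeR adjusted p = 1.47e-09), and 0.81 and 0.84 in the stricter comparisons. Pcdh7, a protocadherin of the cell surface, had a log2 fold change of 1.74, and of 0.92 and 0.86 there. All 4 genes were higher in the collagen-positive class of each library.

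**Figure D3:**
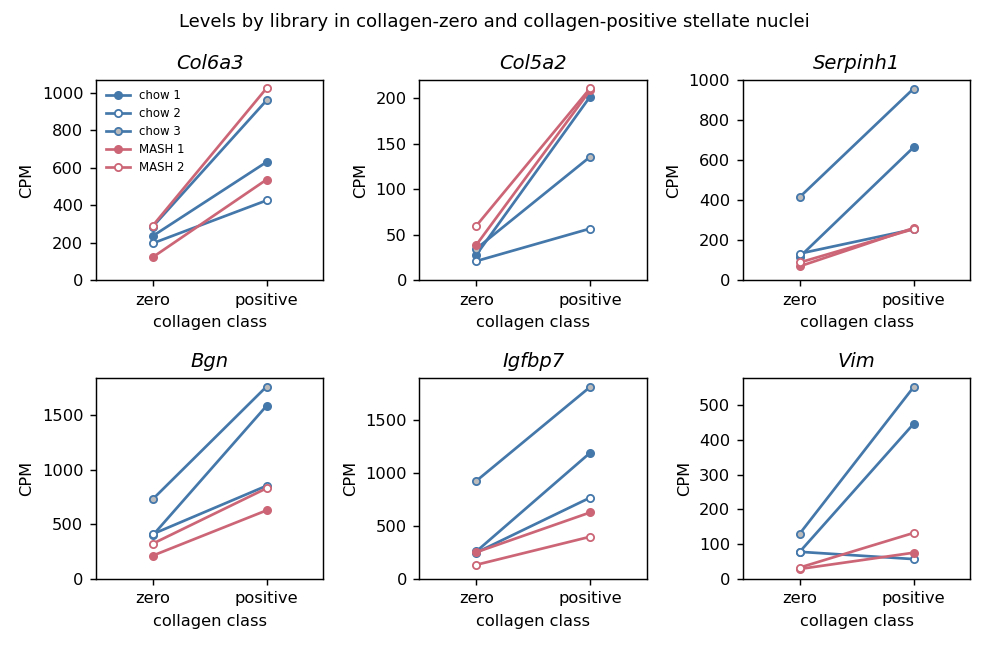
Each line joins the level of a gene in the collagen-zero and collagen-positive nuclei of 1 library, in CPM on linear axes from 0 (blue, chow; red, MASH). Col6a3, Col5a2, Serpinh1, Bgn and Igfbp7 are higher in the collagen-positive class in each of the 5 libraries, and Vim in 4, falling from 77.7 to 56.8 in chow replicate 2.

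The collagens outside the rule moved with those in it. Of 31 collagen genes, 3 are in the rule and 12 others had enough counts to be tested. Of these 12, 10 were higher in the collagen-positive nuclei and 1 was lower, with a median log2 fold change of 1.25. The largest rise was in Col5a2, a chain of the type V collagen that nucleates type I fibrils, at 201 and 28.0 CPM in the 2 classes of chow replicate 1, 56.8 and 21.2 in chow replicate 2, 135 and 34.7 in chow replicate 3, 208 and 38.9 in MASH replicate 1 and 210 and 59.9 in MASH replicate 2 (log2 fold change 2.15, SE 0.24). The type VI chains Col6a1 and Col6a2 rose by 1.73 and 1.70 on the log2 scale, Col14a1, which coats fibrils, by 1.40, and Col4a1 of the basement membrane by 1.19. The gene that was lower, Col18a1, is also made by hepatocytes, and its log2 fold change was −1.03. The median over the list was 0.51 with 1 of 11 genes called higher without nuclei holding hepatocyte regulators, and 0.61 with 5 of 10 called higher among nuclei with at least 4 stellate genes.

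Genes that process collagen had a like pattern. Of 26 such genes 13 were tested, 8 of which were higher and none lower, with a median log2 fold change of 1.20. Besides Serpinh1 they included Adamts2, which cuts off the amino-terminal propeptide of procollagen, at 1.74, Pcolce, which enhances removal of the other propeptide, at 1.53, Plod2, a lysyl hydroxylase, at 1.45, Loxl2, a cross-linking lysyl oxidase, at 1.23 and P4ha1, a prolyl hydroxylase subunit, at 0.93. In the stricter comparisons the median was 0.42 and 0.43, with 1 of 11 and 2 of 10 genes called higher.

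Of 53 matrix glycoproteins and proteoglycans, 28 were tested, 26 were higher and 1 was lower, with a median log2 fold change of 1.35. Bgn, the small proteoglycan biglycan, was at 1584 and 398 CPM in the 2 classes of chow replicate 1, 852 and 410 in chow replicate 2, 1761 and 729 in chow replicate 3, 627 and 212 in MASH replicate 1 and 829 and 322 in MASH replicate 2 (log2 fold change 1.48). Fbln5 and Eln, which build elastic fibres, were higher by 1.99 and 1.97, Sparc, a collagen-binding protein, by 1.46, and Lum, the proteoglycan lumican, by 1.41. Fn1, fibronectin, which hepatocytes secrete in quantity, was the one that was lower, with a log2 fold change of −0.41 (SE 0.15), and its call was lost without chow replicate 2, chow replicate 3 or MASH replicate 2, over a range of −0.55 to −0.35 when libraries were left out singly. In the stricter comparisons 1 of 21 and 4 of 16 genes of the list were called higher, at medians of 0.60 and 0.65.

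All 12 tested matrix proteases and their inhibitors, of 29 listed, were higher, with a median log2 fold change of 1.29. They included the metalloprotease inhibitors Timp3 at 1.57 and Timp2 at 1.03. None of 10 and 1 of 8 were called higher in the stricter comparisons, at medians of 0.38 and 0.58. Acta2, the smooth muscle actin of myofibroblasts, and Timp1 had too few counts to be tested.

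**Figure D4:**
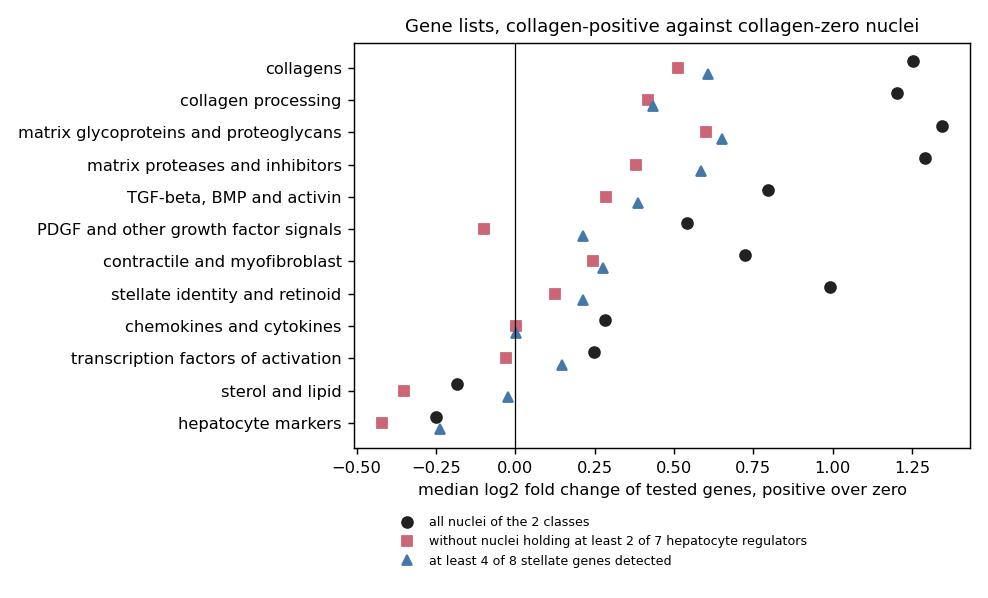
Points give the median log2 fold change, collagen-positive over collagen-zero, of the tested genes of each list. Black circles show all nuclei of both classes, red squares leave out nuclei holding at least 2 of 7 hepatocyte regulators and blue triangles keep nuclei with at least 4 of 8 stellate genes. The 4 matrix lists at the top lie between 1.20 and 1.35 over all nuclei and between 0.38 and 0.65 under the stricter choices, and the medians over all genes tested were 0.00, −0.02 and 0.00.

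Genes of the resting stellate cell were also higher with the collagens. Of 39 genes of stellate identity and retinoid handling, 30 were tested, 23 were higher and 2 were lower, with a median log2 fold change of 0.99. Cxcl12, a chemokine of stellate cells, was higher by 0.93, Hgf, the growth factor of hepatocytes, by 0.93 and Cygb, cytoglobin, by 1.09. The median of the list was 0.13 without nuclei holding hepatocyte regulators, where 0 of 25 genes were called by edgeR, and 0.21 among nuclei with at least 4 stellate genes, where 1 of 25 was called higher. The matrix lists kept higher medians than the identity list under both stricter choices.

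Contractile and myofibroblast genes had a median log2 fold change of 0.72, with 11 of 17 tested genes higher and none lower. Vim, the intermediate filament vimentin, was at 446 and 77.8 CPM in the 2 classes of chow replicate 1, 56.8 and 77.7 in chow replicate 2, 552 and 130 in chow replicate 3, 75.1 and 28.3 in MASH replicate 1 and 132 and 32.4 in MASH replicate 2. Vim was thus higher in 4 of 5 libraries, with a log2 fold change of 1.95 (SE 0.23), and of 1.40 without nuclei holding hepatocyte regulators, where it was also called. Itga8, an integrin chain of stellate cells and myofibroblasts, was higher by 2.28, and Emp1, a membrane protein, by 2.61 (SE 0.31), the largest rise of the named genes. In the stricter comparisons 1 of 11 genes of the list, Vim, and 0 of 9 were called by edgeR, at medians of 0.24 and 0.28. Itga8 had a log2 fold change of 1.19 without nuclei holding hepatocyte regulators (edgeR adjusted p = 0.0959).

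Among signalling genes, the list of TGF-beta, BMP and activin members had 14 of 21 tested genes higher and 2 lower, with a median log2 fold change of 0.80. It included Tgfb1, the ligand that drives collagen transcription in stellate cells, at 1.12 (SE 0.31), and the receptor subunits Tgfbr2 and Tgfbr3. In the stricter comparisons 0 of 14 and 1 of 14 were called higher by edgeR, at medians of 0.28 and 0.39, the one being Fstl1, a secreted follistatin-like protein, at 1.02. Eng, the co-receptor endoglin, was called higher over all nuclei, at 0.81, but had a log2 fold change of −0.020 without nuclei holding hepatocyte regulators. Of the PDGF and other growth factor list, 5 of 10 were higher and 3 lower. Pdgfra, the alpha receptor for platelet-derived growth factor, was higher by 1.09, while Met, the receptor of Hgf on hepatocytes, and Vegfa had log2 fold changes of −1.27 and −0.92. The Wnt, Hedgehog and Hippo list had 5 of 12 genes higher and none lower, with Dkk3, a secreted Dickkopf family member, at 2.09. Chemokines and cytokines had 6 of 19 higher and 4 lower, and transcription factors of activation 7 of 21 higher and 2 lower. The shares called higher in the last of these lists were closer to the 11.3% over all genes than those of the matrix lists. In the stricter comparisons no gene of the growth factor list (6 and 7 tested) or of the Wnt, Hedgehog and Hippo list (7 and 7 tested) was called by edgeR. Pdgfra was at 0.16 and 0.21 there. No gene of the cell cycle list had enough counts to be tested.

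Genes that hepatocytes express were among those lower in the collagen-positive nuclei. Of the 16 hepatocyte markers, all tested, 4 were called lower and none higher, with a median log2 fold change of −0.25, beside 12.7% of all genes called lower. Prox1, a homeobox regulator of hepatocyte fate, was at 35.0 and 177 CPM in the 2 classes of chow replicate 1, 56.8 and 134 in chow replicate 2, 52.1 and 161 in chow replicate 3, 135 and 438 in MASH replicate 1 and 105 and 302 in MASH replicate 2 (log2 fold change −1.65). Mlxipl, the carbohydrate-response regulator ChREBP, and Mat1a, the liver methionine adenosyltransferase, had log2 fold changes of −1.44 and −1.41. Prox1 and Mlxipl are on the list of hepatocyte regulators used for the stricter comparison. The 3 genes lower in that comparison were C3, Pigr and Apoc3, at −0.65, −0.99 and −0.57, and hepatocytes express all 3. Mat1a, Mlxipl, Pigr and Apoc3 were named after their values were seen.

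The third comparison asked what differed between diets within the collagen-positive nuclei. UMIs were summed per library and tested with edgeR, 3 chow against 2 MASH sums. The chow sums held 121281, 38047 and 123379 UMIs and the MASH sums 578312 and 1293530, so the chow values rest on fewer molecules. Of 2715 genes tested, 73 were called, which is 2.69%, 14 higher in MASH (0.516%) and 59 lower (2.17%). On simulated counts of this design, on 2309 genes, 9.41% of genes changed 2-fold and 85.7% of genes changed 4-fold were called, so smaller changes would mostly be missed. The simulation gave every gene the same dispersion, the spread beyond counting error. Recovery with a dispersion that differs between genes was not tested. The number of genes tested changed between fits and is given with each count. The count was 34 of 2463 without the nuclei that held at least 2 portal fibroblast, mesothelial or smooth muscle markers. It was 18 of 2122 among nuclei with at least 4 stellate genes. Without chow replicate 1, 2 or 3 it was 54 of 6168, 189 of 6514 or 72 of 6269. With a limit of 3 collagen UMIs it was 342 of 4943. At that limit chow replicate 2 had 6 collagen-positive nuclei, under the 10 needed for a sum, and was left out. The rise to 342 thus cannot be put down to the limit alone.

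Some genes of stellate identity were lower in MASH. The median of their list also lay below 0 in the collagen-zero nuclei, as given below. In the collagen-positive nuclei, 5 of 28 tested genes of that list were called lower and none higher. The median log2 fold change was −0.91 against 0.00 over all genes, and 26 of 28 lay below 0. Fcna, ficolin A, a lectin of the complement system that stellate cells express, was at 536, 336 and 467 CPM in the chow libraries and 18.2 and 14.7 in the MASH libraries. The log2 fold change of Fcna was −4.82 (SE 0.44, edgeR adjusted p = 0.000187), and it was called under each of 16 alternatives, over a range of −5.47 to −4.54. It was found in 29.8%, 26.1% and 15.5% of the collagen-positive nuclei in chow and in 2.25% and 1.79% in MASH. Fcna lies at chr2:25624666-25628030 on the minus strand and overlaps the antisense gene Fcnaos.

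The other 4 called genes of that list fell by less. Angptl6, an angiopoietin-like secreted protein, was at 443, 149 and 442 CPM in chow and 90.9 and 33.7 in MASH (log2 fold change −2.69, edgeR adjusted p = 0.0186). Ngfr, the low-affinity neurotrophin receptor, was at 227, 261 and 307 CPM in chow and 96.1 and 64.2 in MASH (−1.75, adjusted p = 0.0323). Ntn1, the guidance factor netrin 1, was at 361, 186 and 307 in chow and 77.9 and 95.7 in MASH (−1.79). Abcc9, a subunit of ATP-sensitive potassium channels of pericytes, was at 814, 671 and 860 in chow and 221 and 280 in MASH (−1.65, adjusted p = 0.0440). The groups did not overlap for any of the 4, and over all genes tested MASH lay below chow with no overlap for 16.6% and above it for 17.3%. Leaving out 1 library lost the call of Angptl6 for chow replicate 1 or MASH replicate 2 (values from −3.33 to −1.96 over the 5 leave-outs), of Ntn1 and Abcc9 for chow replicate 1 or either MASH library (−1.96 to −1.53 and −1.79 to −1.38), and of Ngfr for each library other than chow replicate 2 (−1.93 to −1.41). The list had 3 of 27 genes lower without nuclei holding hepatocyte regulators (median −0.58), where 61 of all 2476 genes were lower. It had 2 of 27 without other fibroblast markers (−0.80, 28 of all 2463) and 1 of 26 with at least 4 stellate genes (−0.76, 14 of all 2122). With a limit of 3 collagen UMIs, where chow replicate 2 was left out, it had 12 of 30 (−1.14, 262 of all 4943).

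In the 4 matrix lists Ltbp4 was the one tested gene called between diets within the collagen-positive nuclei. None of 12 collagens, 11 collagen-processing genes and 11 proteases and inhibitors were called by edgeR, with median log2 fold changes of −0.12, −0.12 and 0.42. Col6a3 had a log2 fold change of 0.15, Col5a2 of 0.49, Timp3 of 0.39, Col4a1 of −0.78, Serpinh1 of −1.35 (adjusted p = 0.124), Igfbp7 of −1.34 and Vim of −1.90 (adjusted p = 0.0768). Of 21 matrix glycoproteins 1 was called, Ltbp4, which tethers latent TGF-beta to elastic fibres, at 433, 485 and 492 CPM in chow and 140 and 153 in MASH (log2 fold change −1.67), and its call was lost without chow replicate 1 or either MASH library (−1.75 to −1.51 over the leave-outs). These values do not show that the other matrix genes were alike on both diets, since the median SE over all genes tested was 0.42. None of 15 TGF-beta, BMP and activin genes, 7 Wnt, Hedgehog and Hippo genes, 18 chemokines and cytokines and 14 transcription factors of activation were called by edgeR, at medians of −0.33, 0.02, −0.94 and −0.36. Ccl2, the monocyte chemokine, was spread widely in chow, at 289, 820 and 4179 CPM against 338 and 170 in MASH.

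Of the 14 genes that were higher in MASH, Spp1, Ccdc80, Clca3a1, Phldb2 and Oas2 are described first. Spp1, the secreted matrix phosphoprotein osteopontin, was at 41.2, 37.3 and 12.3 CPM in the chow libraries and 296 and 617 in the MASH libraries. The chow values of Spp1 rest on 4, 1 and 1 UMIs. It was found in 2.13%, 4.35% and 1.41% of the collagen-positive nuclei in chow and in 28.9% and 42.6% in MASH. The log2 fold change of Spp1 was 3.96 (SE 0.59, edgeR adjusted p = 0.00365), and it was called under each of 16 alternatives. Spp1 is also a cholangiocyte marker. The list of 10 cholangiocyte markers summed to between 1.05 and 2.06 UMIs per 10000 in the collagen-positive nuclei of chow and to 4.48 and 8.79 in those of MASH. That list includes Spp1, so its rise holds the rise of Spp1 itself. In the collagen-zero nuclei Spp1 differed in the same direction, with a log2 fold change of 4.86.

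Ccdc80, a secreted matrix protein, was at 82.5, 224 and 147 CPM in chow and 519 and 597 in MASH (log2 fold change 2.05, SE 0.44, edgeR adjusted p = 0.0323). It was found in 7.45%, 21.7% and 14.1% of the collagen-positive nuclei in chow and in 42.1% and 42.2% in MASH. The call was lost without chow replicate 1 or MASH replicate 2, at values from 1.68 to 2.26 over the leave-outs. Clca3a1, a secreted protein of the calcium-activated chloride channel regulator family, was at 309, 74.6 and 184 CPM in chow and 935 and 957 in MASH (2.16), and was found in 20.2%, 8.70% and 15.5% of nuclei in chow and 56.9% and 54.2% in MASH. Clca3a1 was called in all 5 fits that left out 1 library. Clca3a1 has close paralogs in the mouse, so its reads could be shared.

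Phldb2, a membrane-linked organiser of the cell cortex, was at 30.9, 37.3 and 24.6 CPM in chow and 228 and 286 in MASH (log2 fold change 3.12, edgeR adjusted p = 0.00433), and was called under each of 16 alternatives. Oas2, an interferon-induced sensor of double-stranded RNA, was at 51.5, 37.3 and 24.6 in chow and 330 and 192 in MASH (2.72, adjusted p = 0.0182), and its call was lost without chow replicate 1 or MASH replicate 1 (2.40 to 3.16 over the leave-outs). For both genes each MASH library stood above each chow library. Srebf1, the lipogenic regulator SREBP-1, rose by 1.76, and its call was lost in each fit that left out a library (1.58 to 1.92).

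Most of these differences were also present in the collagen-zero nuclei and in nuclei of other gates. For 6 of the 14 higher genes (Ccdc80, Clca3a1, Oas2, Phldb2, Smc4 and Spp1) the mean over the MASH libraries was lower in the hepatocyte-gated nuclei than in the collagen-positive nuclei, and for the other 8, among them Apoa4, Rgs16 and Sorbs2, it was higher. Ccdc80, Clca3a1 and Smc4 were also lower in the collagen-zero nuclei and in those gated as endothelial, immune and cholangiocyte. Spp1, at 3.25 UMIs per 10000 over the MASH libraries in the collagen-positive nuclei, was at 4.02 in the collagen-zero, 4.55 in the endothelial, 4.49 in the immune and 17.9 in the cholangiocyte nuclei. Phldb2, at 1.81, was at 1.97 in the endothelial and 2.39 in the cholangiocyte nuclei, and Oas2, at 1.81, was at 1.82 in the immune nuclei. In the hepatocyte-gated nuclei all 14 genes also had MASH above chow with no overlap. The same held for 13 of the 14 in the collagen-zero, 13 in the endothelial, 11 in the immune and 11 in the cholangiocyte nuclei. Of the 59 lower genes, 41 had a lower chow mean in the hepatocyte-gated nuclei than in the collagen-positive nuclei, among them Fcna, Angptl6, Ngfr, Ntn1, Abcc9 and Ltbp4 but also the hepatocyte genes Mup1, Mup7, Cyp2c29, Serpina1c and Slc27a5. In the hepatocyte-gated nuclei 43 of the 59 had MASH below chow with no overlap. It was 52 in the collagen-zero, 42 in the endothelial, 44 in the immune and 38 in the cholangiocyte nuclei. The share of all genes without overlap in these nuclei was not worked out. Whether these counts of the 14 and the 59 are more than usual there was thus not tested. The hepatocyte markers among the calls were lower in MASH in both kinds of nuclei: Mup7, a major urinary protein, averaged 1326 CPM in chow and 4.95 in MASH in the collagen-positive nuclei, with a log2 fold change of −8.25, and Serpina1e, an alpha-1-antitrypsin gene, had −5.98. Both belong to families of near-identical copies, so reads may be split among members. The list of 16 hepatocyte markers summed to 188 to 459 UMIs per 10000 in the collagen-positive nuclei of chow and to 117 and 184 in those of MASH, against 219 to 339 and 129 to 164 in hepatocyte-gated nuclei, so the collagen-positive nuclei held these RNAs at a like level. The part of such RNA in the calls was not tested.

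**Figure D5:**
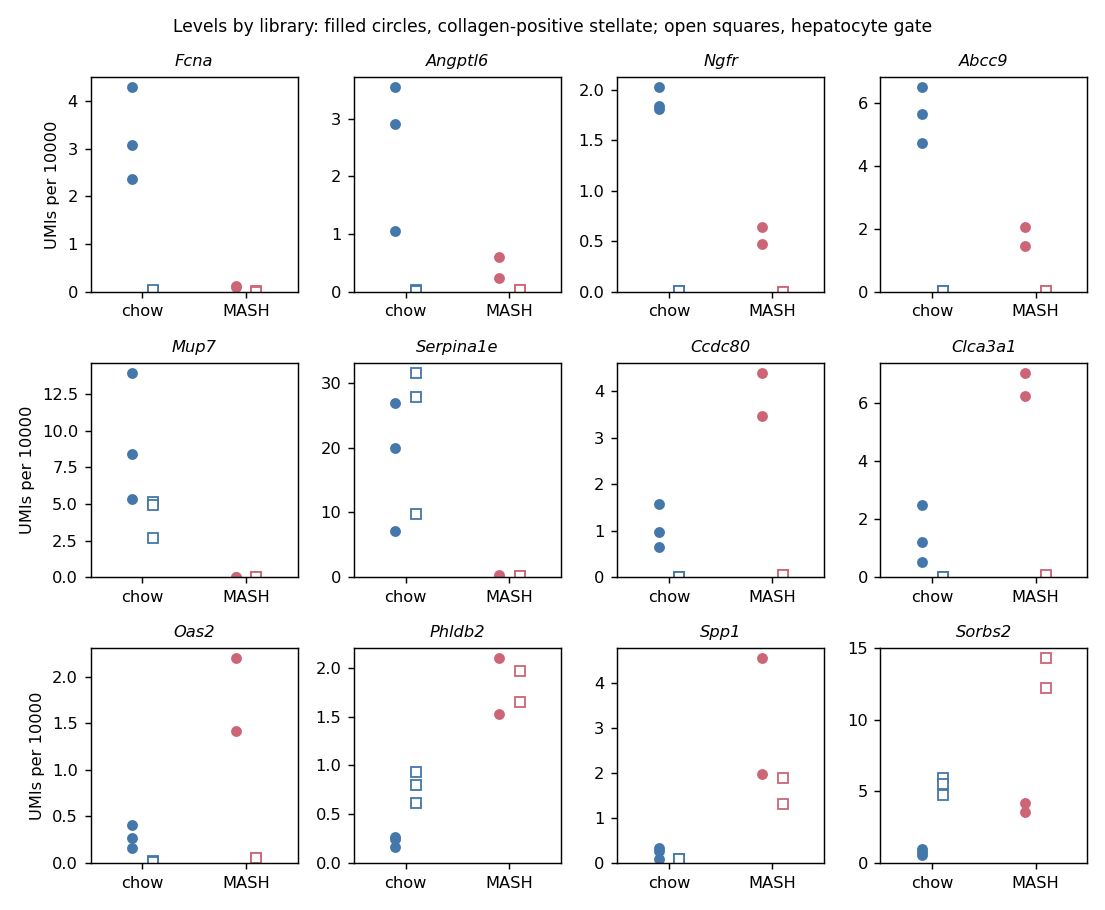
Each panel gives 1 gene in UMIs per 10000 by library, in collagen-positive nuclei (filled circles) and in hepatocyte-gated nuclei (open squares), for chow (blue) and MASH (red), on linear axes from 0. Fcna, Angptl6, Ngfr and Abcc9 are near 0 in the hepatocyte-gated nuclei and lower in MASH in the collagen-positive nuclei. Mup7 and Serpina1e are present in both kinds of nuclei in chow and near 0 in both in MASH, and Sorbs2 is higher in the hepatocyte-gated nuclei than in the collagen-positive nuclei.

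Apoa4 and Rgs16 rested on few chow counts. Apoa4, an apolipoprotein, had 3 UMIs in the collagen-positive nuclei of all chow libraries and 502 in those of MASH, a ratio of 25.3 per UMI sequenced with a 95% counting interval from 8.60 to 123. Rgs16, a regulator of G protein signalling, had 186 UMIs in MASH and 1 in chow, which makes the ratio 28.1 (4.98 to 1115). Both intervals pool the UMIs of each diet and cover counting error only, not the spread between libraries. Other genes lower in MASH included Egfr (log2 fold change −2.18), within which the antisense gene Egfros, also called, lies. They also included the ribosomal protein genes Rpl15, Rpl28, Rpl36, Rps2, Rps3 and Rps18 and the chaperones Hspa8, Hsp90aa1 and Hspe1. Hspa8 was at 546, 820 and 922 CPM in chow and 247 and 195 in MASH (−1.78, edgeR adjusted p = 0.0421). The groups did not overlap for these genes, which were named after their values were seen.

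The same diet test in the collagen-zero nuclei called 83 of 6374 genes, which is 1.30%, 51 of them lower in MASH. Of 30 tested genes of stellate identity 2, Fcna and Angptl6, were called lower and none higher. The median of that list was −0.79 against −0.01 over all genes, and 3 of 30 lay above 0 in these nuclei. Set beside the collagen-positive nuclei, the log2 fold change of Fcna was −3.75 there and −4.82 in the collagen-positive nuclei, that of Angptl6 −2.14 and −2.69, of Ccdc80 1.71 and 2.05, of Clca3a1 0.88 and 2.16 and of Phldb2 1.19 and 3.12. Ccdc80, Clca3a1 and Phldb2 were not called in the collagen-zero nuclei. The difference itself was tested as the interaction of class and diet. It was not called for any of these 5 genes. Nor was it called for any of the 32 tested genes of stellate identity, whose median was 0.01 against 0.16 over all genes. Clca3a1 had an interaction of 1.27 on the log2 scale (SE 0.35, edgeR adjusted p = 0.148) and Phldb2 of 2.08 (SE 0.62, adjusted p = 0.214). Of 7632 genes 1 was called, which is 0.0131%, and 500 had an unadjusted p under 0.05. That gene was Igfbp5, with an interaction of 4.75, whose counts lay in few nuclei. It was called under 4 of 15 alternatives. DESeq2 called 0 genes in this interaction, with 128 at an unadjusted p under 0.05.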

How the data were processed

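Single-nucleus RNA was measured in 5 liver libraries, grouped by their titles into 3 chow and 2 MASH. The authors deposited raw UMI counts per gene and nucleus, made with Cell Ranger 8.0.1 on an mm10 (GRCm38) transcriptome with intronic reads left out, and kept no cell names. The files list 32285 genes, of which 99.6% matched GENCODE M21. Only exonic 3′ reads were counted, so most nuclear pre-mRNA is not in these values.

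The rule on nuclei, the members and the gene lists were chosen with earlier results of these data known. The automatic threshold of Scrublet (scanpy 1.11.5) was not used, doublets were kept, and an alternative left out the highest scores at 0.8% per 1000 barcodes. UMIs were summed per library and class for sums of at least 10 nuclei, the genes of the rule and mitochondrial genes were left out, and edgeR 4.0.16 (R 4.3.3) fitted its quasi-likelihood model to the sums (TMM, filterByExpr, Benjamini-Hochberg over all genes tested, called at an adjusted p under 0.05). The library was a block between classes and in the interaction. CPM is scaled by TMM within each comparison. SE was taken as the size of a log2 fold change divided by the root of its F value. Shares of nuclei and collagen levels are given without a test, since the rule used those counts. The code was tested on simulated data. Named genes were, per comparison, the 10 highest and 10 lowest called genes with at least 50 UMIs and the same direction in every library (or no overlap between diets), every called list member, and up to 4 members per list that were not called; a few genes are not reported here. Replicate numbers were not taken to pair libraries. Alternatives were DESeq2 1.42.0, RLE size factors, Storey q-values, no count filter, other limits on genes, mitochondrial UMIs, collagen UMIs and stellate genes, thinning, leaving out nuclei or libraries, and a block on replicate number.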

Additional observations from a re-analysis of the deposited data

Results flagged for a closer look

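Igfbp5, a secreted protein that binds insulin-like growth factors (chr1:72857932-72874884, minus strand), was the gene whose diet effect differed between collagen-positive and collagen-zero nuclei in the test of the difference itself, with an interaction of 4.75 on the log2 scale (SE 1.003, edgeR adjusted p = 0.0392). The call was lost without chow replicate 2 (4.77, edgeR adjusted p = 0.0586) and without MASH replicate 2 (3.97, adjusted p = 1), and without chow replicate 1 or 3 Igfbp5 had too few counts to be tested. It was also lost with RLE size factors (4.63, edgeR adjusted p = 0.0541), with DESeq2, with thinning and without nuclei holding hepatocyte regulators. With at least 3 collagen UMIs, where the collagen-positive sum of chow replicate 2 was left out, it was lost as well (5.75, edgeR adjusted p = 0.103). Igfbp5 was not tested without other fibroblast markers or with at least 4 stellate genes. The counts were few and unevenly spread. In the collagen-positive nuclei Igfbp5 had 3, 0 and 0 UMIs in the chow libraries and 2 and 14 in the MASH libraries. In the collagen-zero nuclei it had 55 UMIs in chow replicate 1, 40 of them in 1 nucleus, none in chow replicate 2, 140 in chow replicate 3, 65 of them in 1 nucleus, and 2 and 4 in the MASH libraries. In each of those 2 chow libraries the UMIs lay in 3 nuclei.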

How the results depend on the processing

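The share of stellate nuclei that were collagen-positive, their share of all kept nuclei and the summed collagen level kept their direction under each alternative run. Leaving out libraries singly gave differences of 34.0 to 44.3 percentage points, 3.40 to 6.56 percentage points and 8.80 to 16.0 UMIs per 10000. Counts of called genes moved more, and apart from what is stated the cause was not tested. The number of genes tested moved as well and is given after each count. With at least 3 collagen UMIs, the collagen-positive sum of chow replicate 2 held 6 nuclei and was left out. Counts at that limit thus rest on fewer libraries. Between classes, the count of 1362 of 5678 was 850 of 7343 with DESeq2 and 415 of 1806 thinned to 1000 UMIs. With no replicate block (that is, without the library term) it was 430 of 5678. It was 8 of 2111 without nuclei holding hepatocyte regulators and 41 of 2172 with at least 4 stellate genes. Without single libraries it ran from 659 of 4554 (without MASH replicate 2) to 1461 of 6039 (without chow replicate 2). For diet in the collagen-positive nuclei, the count was 73 of 2715, and 198 of 16607 with no filter on low counts. It was 34 of 2463 without other fibroblast markers and 18 of 2122 with at least 4 stellate genes. With at least 3 collagen UMIs it was 342 of 4943, and 41 of 2715 with the replicate block on replicate number. Without single chow libraries it ran from 54 of 6168 (without chow replicate 1) to 189 of 6514 (without chow replicate 2). Counts of diet fits without a MASH library, which leave 1 library in that group, are not given here. In the collagen-zero nuclei, the count of 83 was 133 with DESeq2, 366 with no filter, 22 without nuclei holding hepatocyte regulators and 19 to 157 without single libraries. The interaction count of 1 of 7632 was 0 of 17551 with DESeq2, 0 of 7632 with RLE size factors and 0 of 3143 with thinning. It was 0 of 3476 without nuclei holding hepatocyte regulators, 14 of 17551 with no filter and 10 of 6959 without Scrublet doublets. With at least 3 collagen UMIs it was 2 of 7476. Without single chow libraries it was 0 to 13, the 13 being of 7116 without chow replicate 1.

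The replicate numbers pair nothing: the deviations of same-numbered chow and MASH sums correlated at −0.18 and −0.14 in the collagen-positive nuclei and at −0.24 and −0.17 in the collagen-zero nuclei. Among the named genes reported, calls that changed direction did so between classes only. Without nuclei holding hepatocyte regulators they were Efemp1 (−0.025), Agtr1a (−0.052), G0s2 (0.11), Vipr1 (−0.32), Flna (−0.081), Eng (−0.020) and H2-K1 (−0.020), and with at least 4 stellate genes Vipr1 (−0.21). Of the named genes' values, 6107 kept direction and side of the threshold, 602 lost the call, 56 gained it and 344 that were not called changed sign. Alternatives on hepatocyte regulators and on 4 stellate genes were chosen after seeing the data. The chow sums of collagen-positive nuclei, at 38047 to 123379 UMIs, limit what the diet comparison can show.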
